A study of Homo sapiens with 6 samples.

Results

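The nuclear and mitochondrial genes of the respiratory chain were followed through 2 human cancer cell lines under a targeted inhibitor, by single-cell counts of unique molecular identifiers (UMIs, 1 per captured RNA molecule). A gene was a nuclear member when its symbol began with NDUFA, NDUFB, NDUFC, NDUFS, NDUFV, UQCR, ATP5, SDH followed by a letter from A to D, or COX4 to COX8. It was a mitochondrial member when its symbol began with MT-. Of the 14711 genes in both count tables, 99 were nuclear members and 13 were mitochondrial members, 112 in all. The nuclear members were 37 subunits of complex I, 4 of complex II, 9 of complex III, 15 of complex IV and 20 of complex V, with 8 NDUFAF and 4 SDHAF assembly factors that the same prefixes take in and 2 readthrough genes. Complexes were assigned by symbol prefix, with NDUFA4 and NDUFA4L2 placed in complex IV, so not every member called a subunit need be a structural one. ATP5IF1 and ATP5S, for example, are counted with complex V. A375 is a melanoma line carrying BRAF-V600E, and its 9 populations were an untreated culture and cultures adapted to dabrafenib, a BRAF kinase inhibitor, at 30, 60, 125, 250 or 500 nM or 1, 2 or 4 µM. PC9 is a lung adenocarcinoma line carrying EGFR-del, and its 10 populations included an untreated culture and cultures adapted to osimertinib, an EGFR kinase inhibitor, at 8, 16, 32, 75, 150, 300 or 600 nM or 1.2 µM. The last PC9 population, the persisters, were cells left after 9 days of 1.2 µM osimertinib given at once. A375 was kept in DMEM and PC9 in RPMI-1640, so medium, drug and line cannot be told apart between the lines. Each population was 1 culture, so no difference between populations was tested, and the 95% intervals in parentheses are exact binomial intervals that cover counting error only.

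The respiratory chain passes electrons from NADH through complex I, or from succinate through complex II, to ubiquinone, then through complex III and cytochrome c to complex IV, which reduces oxygen. Complexes I, III and IV pump protons across the inner mitochondrial membrane, and complex V, the ATP synthase, uses that gradient to make ATP. Mitochondrial DNA encodes the core membrane subunits of complexes I, III, IV and V, and nuclear genes encode the other subunits, all of complex II and the assembly factors. The mitochondrial messages are cut from long transcripts of each strand of the circular genome and are translated inside the organelle. Tumour lines under kinase inhibitors are often studied for a shift in their use of oxidative phosphorylation.

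The count tables hold 8505 A375 cells with 87053189 UMIs and 11258 PC9 cells with 77210300 UMIs. Populations held between 2938641 and 21976644 UMIs in A375 and between 4908228 and 10552237 in PC9, and levels are given as counts per 1000000 UMIs (CPM). A member without UMIs could lie at up to 1.02 CPM where A375 was shallowest and 0.611 CPM where PC9 was. The line labels were checked against markers. The epithelial adhesion molecule EPCAM lay between 269 and 441 CPM in the PC9 populations and between 0.504 and 2.14 CPM in A375, and the neural crest factor SOX10 between 29.1 and 211 CPM in A375 and at most 0.412 CPM in PC9. The pigment genes MLANA and PMEL were low in A375, at 0.218 to 1.89 CPM and 1.32 to 4.42 CPM. Some markers did not separate the lines. PMEL lay between 3.22 and 7.34 CPM in PC9, the melanocyte factor MITF between 33.5 and 83.5 CPM and the receptor ERBB3 between 28.1 and 61.7 CPM, and the keratin KRT18 between 257 and 895 CPM in A375. The leukocyte marker PTPRC did not exceed 0.882 CPM in any population of either line. The summed fibroblast markers of A375 were 13.8 CPM in untreated cells and 98.6 CPM at 4 µM, and their part in the results was not tested. The authors' cell tables listed 59.5% of A375 and 37.4% of PC9 cells. They held 22.0% of untreated A375 cells, 12.9% of untreated PC9 cells and 81.8% of persisters, so values in listed cells are given where they differ. Cell names shared by both tables numbered 27, and no name stood in 2 populations of a table.

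The first question was whether the 2 classes moved together along the doses. In A375 they did not: the mitochondrial class was higher in all 8 drug populations than in untreated cells, while the nuclear class lay within 1.07-fold of the untreated level at 4 µM and below it at 60, 125 and 250 nM. The summed nuclear level was 15837 CPM in untreated A375 cells and, from 30 nM to 4 µM, 16028, 15344, 12852, 14554, 16144, 16675, 17013 and 16871 CPM. The summed mitochondrial level was 53630 CPM in untreated cells and 54676, 64848, 73981, 69764, 63513, 64621, 67119 and 79075 CPM along the same doses. Thus the population at 125 nM had the lowest nuclear sum of the line beside the second-highest mitochondrial sum, and it was also the shallowest, with 379 cells. At 4 µM the nuclear sum was 1.07-fold (1.06 to 1.07) and the mitochondrial sum 1.47-fold (1.47 to 1.48) the untreated value. CPM are shares, so a higher mitochondrial sum lowers the others. With mitochondrial UMIs left out of the total the nuclear log2 ratio at 4 µM was 0.13, and as the mean of per-cell CPM it was -0.01, on the other side of 0.

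PC9 had a narrower range in both classes. The nuclear sum was 21445 CPM in untreated PC9 cells, between 20976 and 21578 CPM in the 8 adapted populations and 20397 CPM in persisters, 1.05-fold lower than untreated. The mitochondrial sum was 75485 CPM in untreated cells, between 79316 and 82984 CPM in the adapted populations and 86319 CPM in persisters, the highest of the 10 populations. Against untreated cells the mitochondrial ratio was 1.10 at 1.2 µM and 1.14 (1.14 to 1.15) in persisters. All drug populations of a line are set against the same untreated culture, so their ratios share its error.

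**Figure D1:**
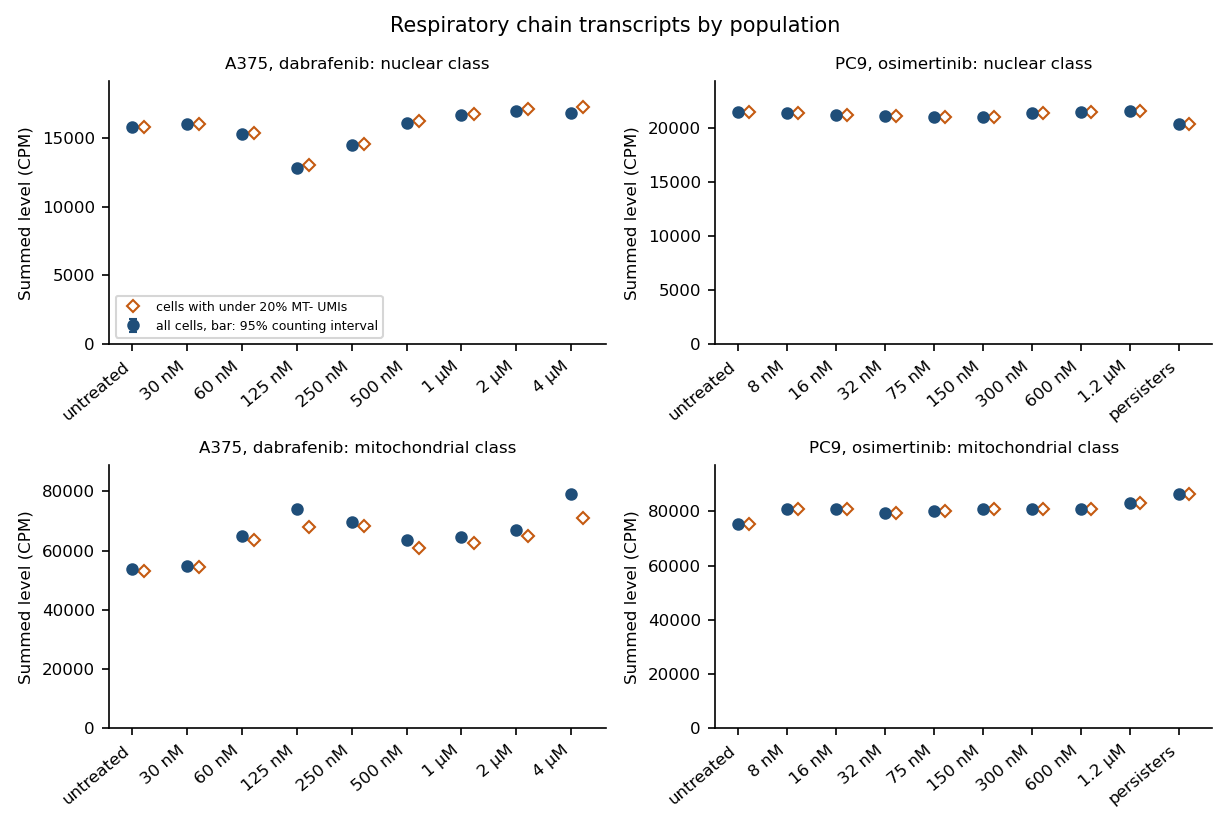
Summed CPM (y axis, from 0) of the nuclear class (top) and the mitochondrial class (bottom) in each population (x axis) of A375 and PC9. Filled circles are all cells with 95% counting intervals smaller than the symbol, and open diamonds are cells with under 20% mitochondrial UMIs. The A375 mitochondrial sum runs from 53630 CPM in untreated cells to 79075 CPM at 4 µM, where the open symbol lies at 71074 CPM.

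Part of the A375 mitochondrial sum lay in cells with 20% or more mitochondrial UMIs. They made up 0.796% of untreated cells, 0.579% at 30 nM, 8.71% at 125 nM (33 of 379) and 10.6% at 4 µM (75 of 705, 8.46 to 13.2). At 4 µM these cells had a median of 2799 UMIs against 10220 in the other cells, and their nuclear class lay at 4994 CPM against 17261 CPM. With mitochondrial UMIs left out of the total the nuclear class was still lower in them, at 7374 CPM against 18582 CPM. None of them stood in the authors' cell table. Without these cells the mitochondrial sum was 53218 CPM in untreated cells, 67966 CPM at 125 nM and 71074 CPM at 4 µM, ratios of 1.28 and 1.34, and the nuclear sum at 125 nM was 13091 CPM against 15859 CPM. The median share per cell was 5.22% in untreated A375 cells and 7.67% at 4 µM, and the 90th percentile 7.32% and 22.0%. No PC9 cell reached 20%, but the highest share was 19.9952% in PC9, just under that limit, against 59.0% in A375. Whether PC9 cells had been filtered at 20% before deposit was not tested, so the lines cannot be compared in their high-share cells. The PC9 median share was 7.42% in untreated cells, 8.33% at 1.2 µM and 8.55% in persisters. RNA quality was not measured otherwise, and its part in the A375 ratio was not tested.

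Among the 13 mitochondrial genes the A375 difference was uneven. The genes lie on chromosome M of GRCh38, all but MT-ND6 on the plus strand, and each has a single exon. MT-ATP8 (8366 to 8572) and MT-ATP6 (8527 to 9207), the membrane subunits of the ATP synthase, share 46 bases, and MT-ND4L and MT-ND4 of complex I share 7 bases, so reads from the shared bases cannot be given to 1 gene of a pair. The shared stretch of the first pair, chrM:8527-8572 on the plus strand, is printed because these genes form the only complex whose mitochondrial messages summed to less at 4 µM than in untreated cells, with the start codon of MT-ATP6 in capitals.
MT-ATP8 and MT-ATP6 overlap: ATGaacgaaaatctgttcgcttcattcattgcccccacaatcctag

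MT-CO2 (chromosome M, 7586 to 8269) encodes the complex IV subunit that takes electrons from cytochrome c. It lay at 6446 CPM in untreated A375 cells and at 9847, 10344, 13673, 12366, 11239, 12144, 13120.2 and 15298 CPM from 30 nM to 4 µM. Every adapted population was above the untreated one, and the value at 4 µM was 2.37-fold higher (2.35 to 2.39). MT-CO1, the catalytic subunit of complex IV, was 7676 CPM in untreated cells and between 9444 and 13972 CPM in the adapted ones, 1.82-fold higher (1.81 to 1.83) at 4 µM. MT-CYB (14747 to 15887), the cytochrome b of complex III, was 5903 CPM in untreated cells and between 7281 and 10818 CPM in the adapted ones, 1.83-fold higher (1.82 to 1.85) at 4 µM. These 3 genes were the members of the class at least 1.5-fold higher at 4 µM, and none was 1.5-fold lower. As the mean of per-cell CPM 7 were higher, at 2-fold MT-CO2 alone was, and in listed cells the same 3 were higher and MT-ND6 lower. Of all 9946 genes measured in that comparison, 10.7% were higher by 1.5-fold or more and 21.0% were lower. MT-CO3, the third core subunit of complex IV, was 8168 CPM in untreated cells and 11301 CPM at 4 µM, with 7482 CPM at 30 nM, below the untreated value.

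At 4 µM the complex I messages lay closer to their untreated values than MT-CO2, MT-CO1 and MT-CYB did. From untreated cells to 4 µM, MT-ND4 was 5646 and 7815 CPM, MT-ND1 1638 and 2192 CPM, and MT-ND5 1369 and 1828 CPM, each 1.34-fold to 1.38-fold apart. MT-ND2 was 2047 and 2076 CPM, MT-ND3 1126 and 1106 CPM, and MT-ND4L 131 and 137 CPM. MT-ND6 (14149 to 14673), the only member on the minus strand, was 174 CPM in untreated cells and 104, 121, 91.5, 126, 96.5, 77.7, 78.3 and 132 CPM along the doses. All 8 adapted populations were below the untreated one for this gene, by 1.32-fold (1.23 to 1.41) at 4 µM and by 2.22-fold (2.04 to 2.41) at 2 µM. MT-ATP6 was 13250.1 CPM in untreated cells and 12347 CPM at 4 µM, and MT-ATP8 56.5 and 51.6 CPM. Summed by complex, the mitochondrial messages of complex IV were 22289 CPM in untreated cells and 40571 CPM at 4 µM, those of complex I 12131 and 15288 CPM, and those of complex V 13307 and 12398 CPM.

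The same unevenness showed in the make-up of the mitochondrial UMIs, which does not depend on the total. MT-ATP6 was 24.7% of them in untreated A375 cells and 15.6% at 4 µM. MT-CO2 had 12.0% and 19.3%, and MT-CO1 14.3% and 17.7%. In cells with under 20% mitochondrial UMIs the MT-CO2 share at 4 µM was 19.0%. The log2 ratios at 4 µM in those cells were 1.08 for MT-CO2, 0.72 for MT-CO1, 0.74 for MT-CYB, -0.24 for MT-ATP6 and -0.56 for MT-ND6. The sign of MT-ATP6 depended on the averaging: as a mean of per-cell CPM, which gives each cell equal weight, its log2 ratio was 0.18, and that of MT-ND6 was -0.03.

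**Figure D2:**
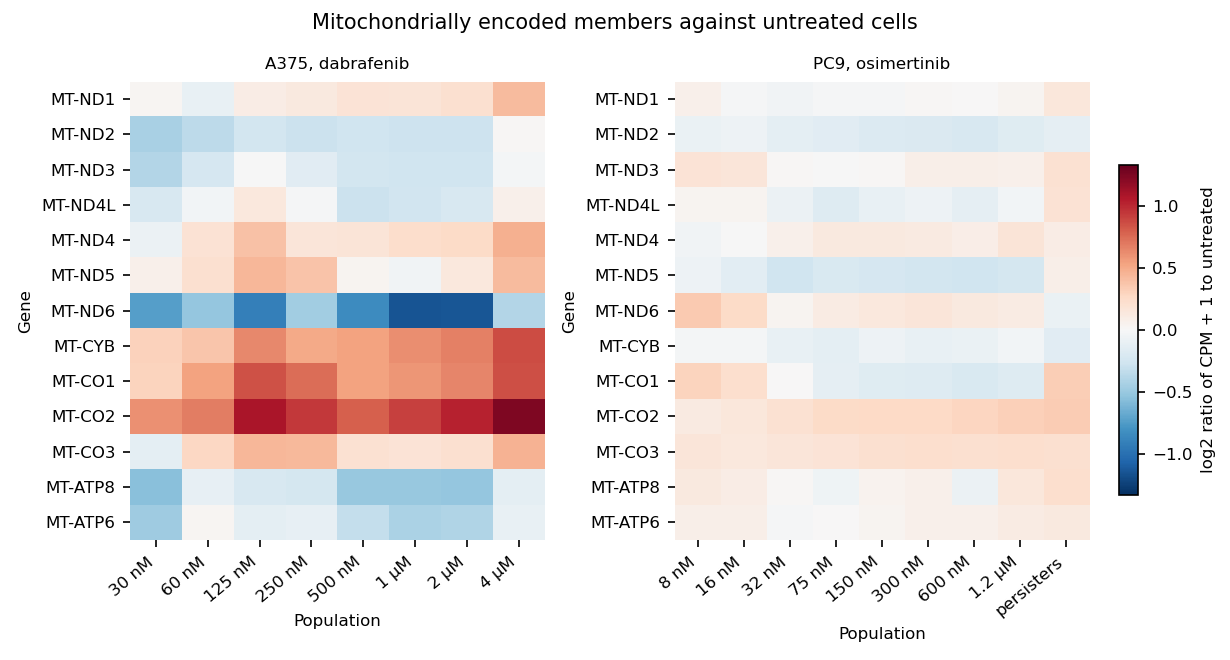
Heat map of the 13 mitochondrial genes (y axis) in each drug population (x axis), coloured by the log2 ratio of CPM + 1 to the untreated cells of the same line. In A375 at 4 µM MT-CO2 is the highest at 1.25 and MT-ND6 the lowest at -0.39, and in PC9 the values stay within the 1.5-fold limit.

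In PC9 no mitochondrial gene was 1.5-fold higher or lower in any comparison with untreated cells. From 8 to 600 nM the share of all measured genes that was higher was 9.06, 10.8, 11.8, 13.2, 12.9, 14.3 and 14.7%, and the share that was lower 5.69, 6.34, 7.53, 9.51, 10.0, 11.2 and 11.2%. In the 1.2 µM population 14.3% of 9477 measured genes were at least 1.5-fold higher and 11.3% lower, and in persisters 20.3% of 9646 were higher and 21.0% lower. MT-CO2 was above untreated in all 9 drug populations, at 19436 CPM in untreated cells, 24262 CPM at 1.2 µM and 24590.3 CPM in persisters. MT-CO3 was 13600.1, 15881 and 15759 CPM in the same populations. MT-CO1 did not keep 1 side: it was 7845 CPM in untreated cells, 9613 CPM at 8 nM and 9166 CPM at 16 nM, between 6807 and 7899 CPM from 32 nM to 1.2 µM, and 9853 CPM in persisters. Between persisters and the 1.2 µM population it was the mitochondrial gene with the highest ratio, 1.42-fold (1.40 to 1.43), and its share of the mitochondrial UMIs was 11.4% against 8.39%. MT-CYB was below untreated in all 9 drug populations, at 6287 CPM in untreated cells, 6142 CPM at 1.2 µM and 5645 CPM in persisters. MT-ND2 was also lower, with 2541, 2275 and 2338 CPM. The complex IV messages summed to 40881, 47103 and 50202 CPM in untreated cells, at 1.2 µM and in persisters.

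The nuclear subunits were then summed by complex. Complex IV was the nuclear complex with the highest ratio at the top dose of both lines: in A375 it was 3376 CPM in untreated cells, 3066 CPM at 125 nM and 4025 CPM at 4 µM, 1.19-fold higher. In PC9 it was 5219 CPM in untreated cells, 6177 CPM at 1.2 µM (1.18-fold) and 5966 CPM in persisters (1.14-fold). Complex I of A375 was 4899 CPM in untreated cells and 5089.9 CPM at 4 µM, and complex V 4678 and 4826 CPM. In PC9 complex I was 7489 CPM in untreated cells, 7078 CPM at 1.2 µM and 6778 CPM in persisters, and complex V 5683, 5724 and 5053 CPM. Complex III of PC9 was 2097, 1817 and 1911 CPM. The complex I assembly factors of PC9 stood apart from the subunits, at 523 CPM in untreated cells, 377 CPM at 1.2 µM (1.39-fold lower) and 308 CPM in persisters (1.70-fold lower). They were already at 398 CPM at 8 nM, 1.31-fold lower. In A375 they were 575 CPM in untreated cells and 553 CPM at 4 µM.

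**Figure D3:**
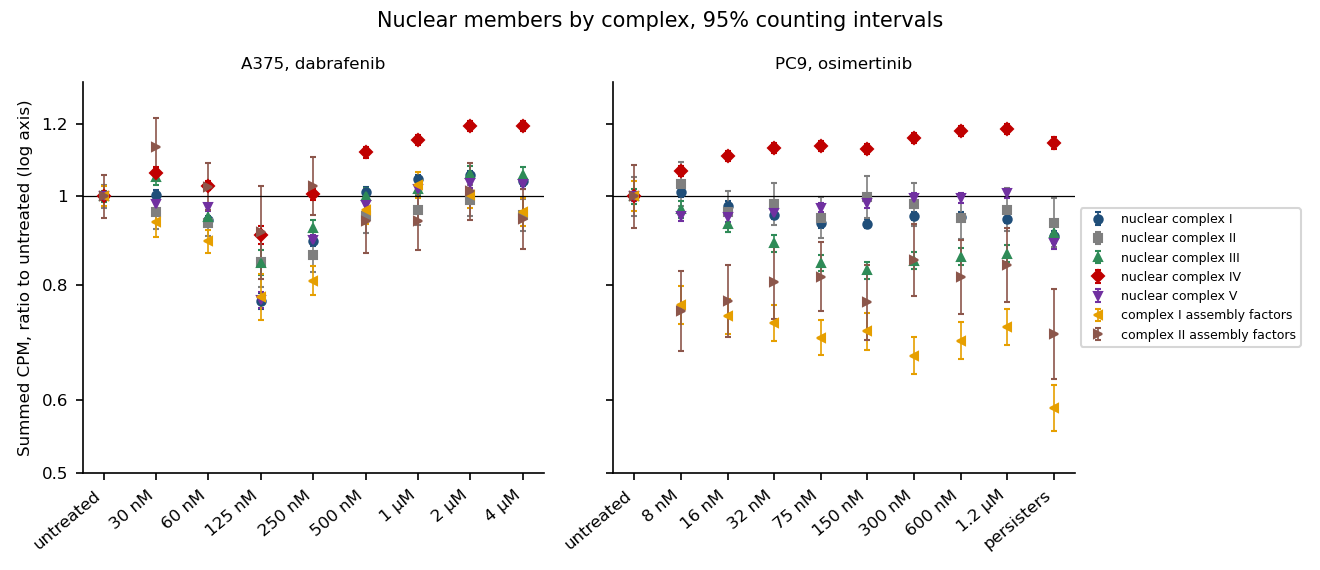
Summed CPM of the nuclear members of each complex and of the assembly factors as a ratio to untreated cells (y axis, log scale) by population (x axis), with 95% counting intervals. Complex IV reaches 1.19 in A375 at 4 µM and 1.18 in PC9 at 1.2 µM, and the complex I assembly factors of PC9 lie below all 5 complexes, 1.70-fold lower in persisters.

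Gene by gene, 93 of the 99 nuclear members were measured at 4 µM in A375, that is, reached 10 CPM and 20 UMIs in whichever population was higher. The 6 left out, below 10 CPM in all A375 populations, were ATP5MF-PTCD1, ATP5MGL, COX6B2, NDUFA7, NDUFC2-KCTD14 and SDHAF4. PC9 lacked the same genes at that level but for SDHAF4, in whose place stood NDUFA4L2. Of the 93 measured, 5 were at least 1.5-fold higher and 1 was lower, against the 10.7% and 21.0% of all genes. In listed cells, without cells of high UMI counts or with TMM factors, which scale by a trimmed mean of gene ratios, 7 were higher. The median log2 ratio of CPM + 1 of the 93 in all cells was 0.08, beside -0.17 over all genes measured. As the mean of per-cell CPM it was -0.02, beside -0.16. In complex I, 4 of 36 were higher and none lower. NDUFB5 (chromosome 3, 179604690 to 179627647), a membrane arm subunit, was 115 CPM in untreated cells and 154, 143, 146, 154, 163, 173, 197 and 196 CPM along the doses, 1.70-fold higher (1.60 to 1.82) at 4 µM. NDUFS8 (chromosome 11, 68030617 to 68036644), an iron-sulfur subunit, was 212 CPM in untreated cells, lay below that from 60 to 250 nM with 164 CPM at 125 nM, and was 342 CPM at 4 µM, 1.61-fold higher (1.54 to 1.69). The accessory subunits NDUFA3 (15.3 and 23.8 CPM) and NDUFA6 (32.7 and 50.01 CPM) were the other 2. The median over complex I was 0.05, so these genes did not represent the complex. Complex IV had the highest median of the 5, 0.28, with 12 of 14 measured members above 0 but only NDUFA4L2 past 1.5-fold.

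**Figure D4:**
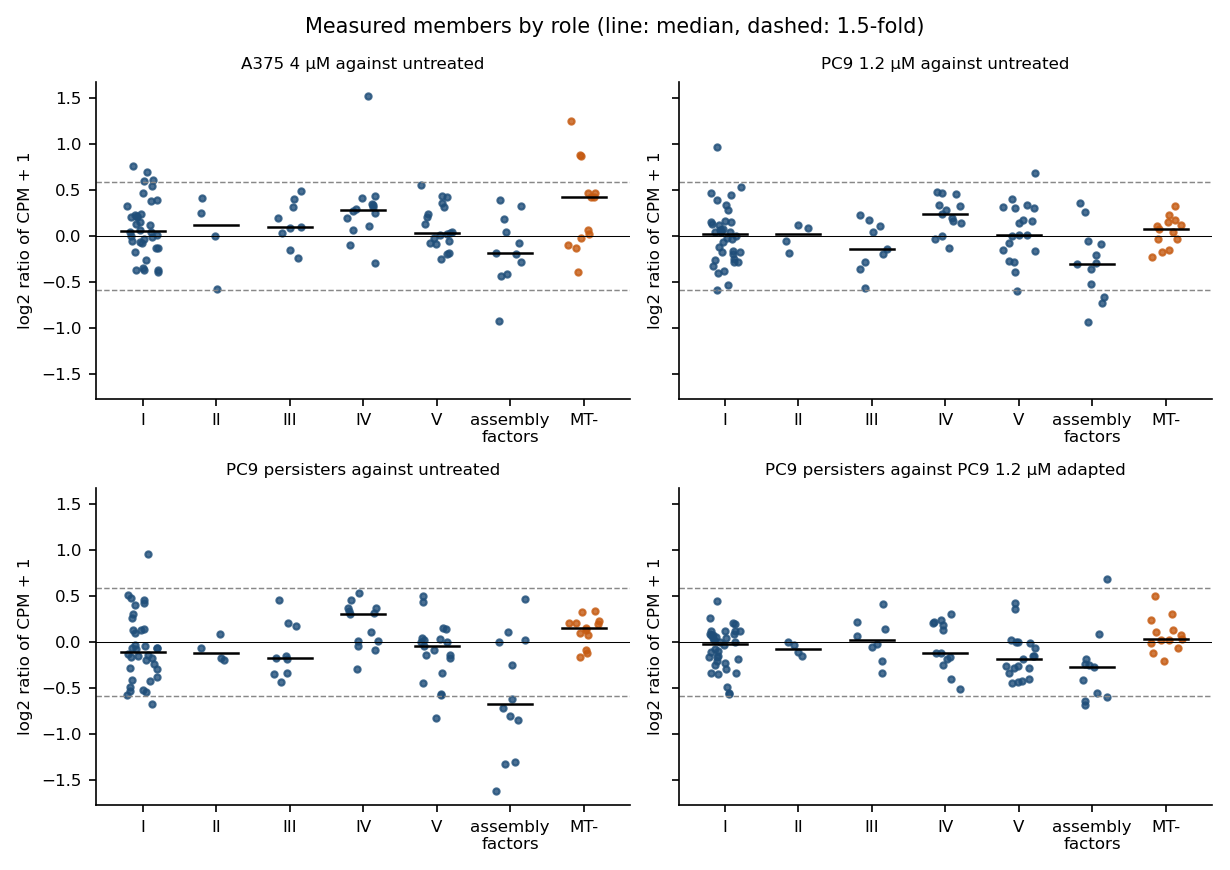
Log2 ratio of CPM + 1 (y axis) of every measured member (points) in 4 comparisons, grouped by complex, with assembly factors and mitochondrial genes apart (x axis). Horizontal bars are medians and dashed lines mark 1.5-fold. In A375 at 4 µM the complex IV median is 0.28, and in PC9 persisters the lowest points are assembly factors, down to -1.61.

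At 125 nM the nuclear median in A375 lay on the other side of 0. No nuclear member was at least 1.5-fold higher and 17 of 92 measured were lower, where 10.2% of all genes measured were higher and 16.9% lower. The count of lower members was thus near the share of all genes. The median was -0.34, beside -0.09 over all genes, and 76 of the 92 lay below 0. The 17 were 7 complex I, 2 complex III and 4 complex V subunits, 3 complex I assembly factors and 1 complex II assembly factor, and none belonged to complex IV. ATP5MF, a membrane subunit of the ATP synthase, was the lowest at 51.0 CPM against 97.4 CPM in untreated cells, and it was between 80.2 and 108 CPM in the 7 other adapted populations. At the remaining doses 0 to 3 nuclear members were lower, and those at least 1.5-fold higher were 1 at 30 nM, 0 from 60 to 500 nM, 3 at 1 µM and 5 at 2 µM. Of all genes measured, 8.99, 5.36, 8.99, 9.49, 9.47 and 10.2% were higher at 30, 60, 250 and 500 nM, 1 and 2 µM, and 12.8, 5.60, 14.7, 16.2, 20.1 and 22.4% were lower.

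In PC9 at 1.2 µM 2 of 93 measured nuclear members were at least 1.5-fold higher and 5 were lower, below the 14.3% and 11.3% of all genes, and the median was 0.01, beside 0.02. NDUFA3 (chromosome 19, 54102728 to 54109257), a small membrane subunit of complex I, had the highest ratio. It was 33.2 CPM in untreated cells and 40.3, 46.8, 54.4, 54.0, 55.7, 64.9, 61.6 and 65.7 CPM from 8 nM to 1.2 µM, and 65.6 CPM in persisters. The 9 drug populations were all above untreated, by 1.98-fold (1.72 to 2.28) at 1.2 µM. The other was ATP5S, also known as DMAC2L, at 26.2 and 42.7 CPM. The lower subunits were ATP5MPL of the ATP synthase, at 280.4 CPM in untreated cells and 185 CPM at 1.2 µM, and the complex I accessory subunit NDUFA12, at 184 and 122 CPM. Both lay near the limit, at 1.52-fold and 1.51-fold, and NDUFA12 missed it with mitochondrial UMIs left out of the total (log2 ratio -0.58). The remaining 3 were complex I assembly factors. From 8 to 600 nM 0 to 2 of the 93 nuclear members were at least 1.5-fold higher and 3 to 7 were lower.

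In persisters against untreated cells 1 of 93 measured nuclear members was at least 1.5-fold higher, NDUFA3, and 9 were lower, where 20.3% of all genes measured were higher and 21.0% lower. In listed cells 6 of 90 were higher and 9 lower, where 1856 of all 8849 genes measured were higher and 1686 lower. In all cells the median was -0.07, beside -0.04 over all genes. Subunits held 2 of the 9, of 81 measured. ATP5MC1 (chromosome 17, 48892765 to 48895871), 1 of the 3 genes for the ring subunit c of the ATP synthase, was 240.1 CPM in untreated cells, 182 CPM at 1.2 µM and 135 CPM in persisters, 1.78-fold lower (1.63 to 1.94). NDUFC1 of complex I was 123 CPM in untreated cells, between 93.8 and 116 CPM in the adapted populations and 76.6 CPM in persisters. The remaining 7 were assembly factors, 5 of 8 for complex I and 2 of 4 for complex II. Of these, SDHAF1 was measured only through untreated cells, at 10.5 CPM against 6.52 CPM (32 UMIs) in persisters. Among complex IV subunits, COX7C was the nearest to the limit on the other side, at 528 CPM in untreated cells, 667 CPM at 1.2 µM and 768 CPM in persisters.

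The NDUFAF proteins help build complex I and are not part of the finished enzyme. NDUFAF2 (chromosome 5, 60945129 to 61153037) is a chaperone present on a late assembly intermediate. It was 93.1 CPM in untreated PC9 cells and 57.9, 56.6, 57.8, 57.4, 62.2, 54.0, 50.3 and 58.3 CPM from 8 nM to 1.2 µM, and 37.1 CPM in persisters. It was thus lower from the lowest dose on, showed no further order along the doses and was lowest in persisters, by 2.51-fold (2.14 to 2.96). NDUFAF4 (chromosome 6, 96889313 to 96897881), an early assembly factor, was 57.9 CPM in untreated cells, 39.8 CPM at 8 nM, between 30.8 and 36.5 CPM from 16 nM to 1.2 µM, and 22.6 CPM in persisters, 2.56-fold lower (2.09 to 3.16). NDUFAF6 had a more gradual order, at 86.8, 71.9, 67.0, 53.3, 44.5, 43.1, 40.6, 45.9 and 45.01 CPM from untreated cells to 1.2 µM, and 27.7 CPM in persisters. It was the nuclear member with the lowest ratio in persisters, 3.13-fold lower (2.61 to 3.78).

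NDUFAF5 (chromosome 20, 13784950 to 13821582), which modifies the subunit NDUFS7, was 32.0 CPM in untreated cells, between 24.8 and 27.9 CPM in the adapted populations and 17.3 CPM in persisters. NDUFAF8 (chromosome 17, 81239239 to 81241281), its partner, was 178 CPM in untreated cells, between 126 and 144 CPM in the adapted populations and 108 CPM in persisters. The other 3 did not follow. NDUFAF3 was 50.1 CPM in untreated cells, between 35.6 and 49.1 CPM in the adapted populations and 69.9 CPM in persisters. NDUFAF1 stayed between 12.0 and 16.0 CPM and NDUFAF7 between 11.4 and 14.6 CPM across the 10 PC9 populations, close to the 10 CPM minimum. Of the complex II factors, SDHAF3 (chromosome 7, 97116590 to 97181763) was 61.1 CPM in untreated cells and 34.6 CPM in persisters, and SDHAF1 10.5 and 6.52 CPM. Over the PC9 populations the assembly factors had a median ratio of highest to lowest CPM + 1 of 1.77, against 1.30 for subunits of complex I, 1.302 for complex IV and 1.26 for complex V. In A375 these medians were closer, at 1.55 for assembly factors, 1.47 for complexes I and IV and 1.44 for complex V, with complex II at 1.61. Counting error is larger for genes at low CPM and adds to such a ratio, so its part in these medians was not tested.

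**Figure D5:**
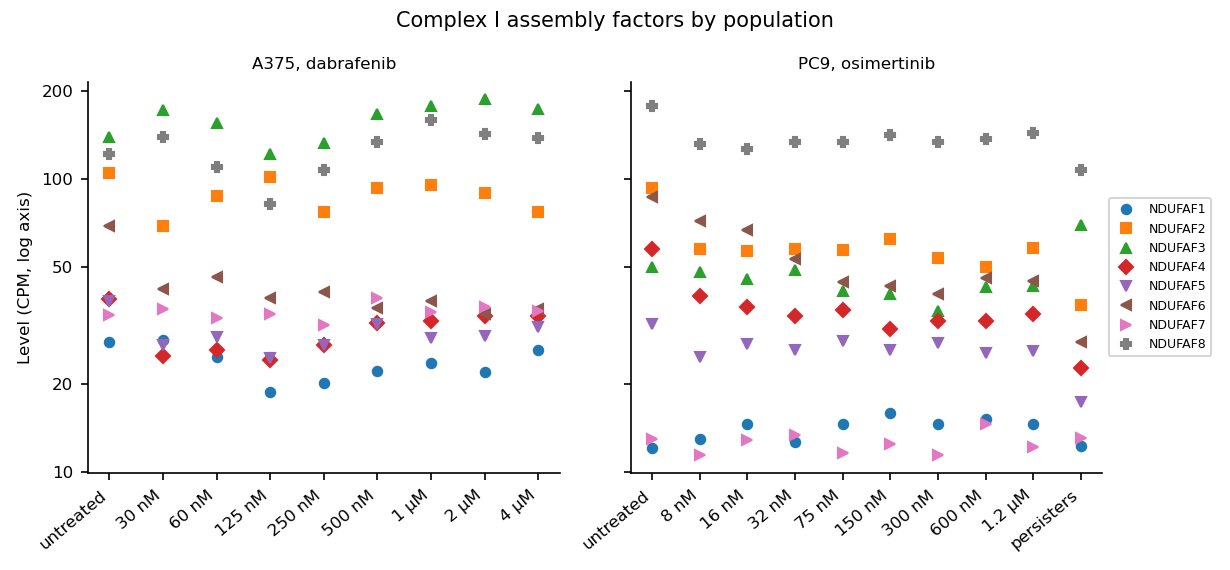
CPM (y axis, log scale) of the 8 complex I assembly factors in each population (x axis) of A375 and PC9, 1 symbol per gene. In PC9 NDUFAF2, NDUFAF4 and NDUFAF6 are lowest in persisters, at 37.1, 22.6 and 27.7 CPM, while NDUFAF3 is highest there at 69.9 CPM.

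In cells listed in the authors' table the same comparison of persisters with untreated cells had 6 measured complex I assembly factors, of which 5 were lower and 1 was higher. Of all 8849 genes measured in those cells, 1856 were higher and 1686 lower. There the log2 ratios were -1.38 for NDUFAF2, -1.23 for NDUFAF4 and -1.63 for NDUFAF6. Persisters against the 1.2 µM population rested more on the choice of cells. In all cells 1 of 91 measured nuclear members was at least 1.5-fold higher and 3 were lower, where 10.9% of all genes measured were higher and 13.5% lower. They were NDUFAF3, 1.62-fold higher (1.39 to 1.89), NDUFAF6, 1.62-fold lower (1.33 to 2.00), NDUFAF2, 1.57-fold lower (1.32 to 1.88), and NDUFAF4, 1.53-fold lower (1.22 to 1.93). In listed cells none of the 3 lower ones passed 1.5-fold, with log2 ratios of -0.28, -0.31 and -0.57. In A375 NDUFAF6 alone among the 8 was at least 1.5-fold lower at 4 µM. It was 69.4 CPM in untreated cells, between 34.7 and 46.3 CPM in the adapted populations and 36.1 CPM at 4 µM, 1.92-fold lower (1.69 to 2.19), but its log2 ratio in listed cells was -0.43, short of the limit.

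Promoters are printed for 3 complex I assembly factors that were lower in persisters. RefSeq windows of GRCh38.p14, from 250 bases before to 50 after the start, were found for 78 of the 99 nuclear members and 11 of the 12 assembly factors, all but NDUFAF6. Both strands were searched for 3 motifs of factors known for nuclear genes of mitochondrial proteins. They were CCGGAAG, the ETS site that GABP also reads, GCGCATG, from the NRF1 site, and AAGATGG, from the YY1 site, which can share the letters AAG with the ETS site but did so in 0 members. CCGGAAG stood in windows of 24 of the 78 members (30.8%) and of 20.7% of the 11372 genes of both tables with a window. GCGCATG was found for 18 members (23.1%) against 8.17% of genes, and AAGATGG for 19 (24.4%) against 9.08%. Among the 11 assembly factors 4 held the ETS letters (36.4%), 3 the NRF1 letters (27.3%) and 1 the YY1 letters (9.09%), while NDUFAF2 held none of them. A match is a description of letters and not a binding site, and in NDUFAF5 the matches of both strands overlap. Matches are in capitals in the windows of NDUFAF4 (chr6:96897842-96898141, minus strand), NDUFAF5 (chr20:13784778-13785077, plus strand) and NDUFAF8 (chr17:81239061-81239360, plus strand), the 3 lower complex I factors with a match. NDUFAF8 has 3 windows in RefSeq: the one printed, another that overlaps it and holds the same matches, and chr17:81239664-81239963 on the plus strand with none.
NDUFAF4: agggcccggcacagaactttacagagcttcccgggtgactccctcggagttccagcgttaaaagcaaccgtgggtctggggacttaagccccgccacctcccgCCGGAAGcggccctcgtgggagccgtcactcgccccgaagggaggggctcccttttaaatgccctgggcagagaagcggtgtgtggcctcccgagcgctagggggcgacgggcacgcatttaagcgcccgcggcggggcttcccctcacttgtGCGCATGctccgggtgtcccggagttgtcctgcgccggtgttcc
NDUFAF5: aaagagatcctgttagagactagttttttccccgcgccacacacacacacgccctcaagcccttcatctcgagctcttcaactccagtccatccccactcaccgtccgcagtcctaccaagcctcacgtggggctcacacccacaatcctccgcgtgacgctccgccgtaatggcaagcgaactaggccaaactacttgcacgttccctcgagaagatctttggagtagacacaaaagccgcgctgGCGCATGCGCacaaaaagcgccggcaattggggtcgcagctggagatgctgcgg
NDUFAF8: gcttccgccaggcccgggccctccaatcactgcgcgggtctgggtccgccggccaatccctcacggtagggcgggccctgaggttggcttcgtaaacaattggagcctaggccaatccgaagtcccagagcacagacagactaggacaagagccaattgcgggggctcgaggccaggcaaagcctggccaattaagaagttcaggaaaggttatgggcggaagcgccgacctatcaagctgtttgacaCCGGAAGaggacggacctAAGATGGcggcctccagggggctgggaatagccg

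Complex II, also the succinate dehydrogenase of the tricarboxylic acid cycle, has only nuclear subunits. SDHA, the flavoprotein, was 48.6 CPM in untreated A375 cells and between 33.0 and 57.6 CPM in the adapted ones, on both sides. SDHB, the iron-sulfur subunit, was 147 CPM in untreated cells and 118, 121, 112, 107, 103, 110.4, 99.4 and 98.1 CPM along the doses. It was below untreated throughout, by 1.497-fold (1.38 to 1.62) at 4 µM, just short of the limit on the log2 scale of CPM + 1. The membrane anchors differed from it: SDHC lay between 172 and 189 CPM in all 9 A375 populations, and SDHD was 60.2 CPM in untreated cells, 51.7 CPM at 125 nM, 99.6 CPM at 2 µM and 80.3 CPM at 4 µM. In PC9 the 4 genes stayed nearer to untreated. SDHA was 131 CPM in untreated cells and 115 CPM in persisters, SDHB 70.2 and 62.3 CPM, SDHC 83.9 and 89.2 CPM, and SDHD 29.9 and 28.5 CPM.

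Several subunits have isoforms made by separate genes, and each was followed on its own. NDUFA4L2 (chromosome 12, 57234903 to 57240715), a paralog of the complex IV subunit NDUFA4 that is known as a hypoxia-responsive gene, was 3.28 CPM in untreated A375 cells and 4.56, 3.796, 7.83, 6.81, 9.35, 15.1, 14.9 and 11.3 CPM along the doses. All adapted populations were above untreated, by 3.44-fold (2.48 to 4.77) at 4 µM, and the gene was measured at 1 µM and above only because it was high there. In PC9 it did not exceed 0.790 CPM. NDUFA4 (chromosome 7, 10931951 to 10940256) was 369 CPM in untreated A375 cells and 419.9 CPM at 4 µM, and in PC9 701 CPM in untreated cells, 875 CPM at 1.2 µM and 662 CPM in persisters. COX8A, a small subunit of complex IV, had the same order of levels in PC9, at 428, 591 and 415 CPM. COX6A1 was 208 CPM in untreated PC9 cells and between 235 and 289.6 CPM in all drug populations, and COX6B1 397 and between 428 and 559 CPM. Its testis-type partner COX6B2 did not exceed 2.20 CPM in either line.

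COX4I1, the regulatory subunit 4, was 808 CPM in untreated A375 cells and 1006 CPM at 4 µM, and 601 CPM in untreated PC9 cells, 669 CPM at 1.2 µM and 777 CPM in persisters. COX7A2L, which takes part in joining complexes III and IV into supercomplexes, was 179 CPM in untreated A375 cells and 243 CPM at 4 µM, while its paralog COX7A2 was 214 and 199.9 CPM. COX7B2 was 50.3 and 40.8 CPM in A375 and 36.1 CPM in untreated PC9 cells against 50.1 CPM in persisters. The 3 genes of subunit c encode the same mature protein but differed in persisters: against untreated cells ATP5MC1 was 1.78-fold lower, ATP5MC3 1.49-fold lower (1239 and 833 CPM) and ATP5MC2 1.42-fold higher (228 and 323 CPM). In A375 at 4 µM they were within 1.09-fold of untreated. UQCRHL and ATP5MGL are near copies of UQCRH and ATP5MG, so counts within each pair are uncertain.

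Over both lines, 105 members had at least 10 CPM in at least 1 population of each line. Of these, 7 were above the untreated culture in all 17 drug populations of both lines: MT-CO2, COX6B1, NDUFA3, UQCRB, ATP5MC2, ATP5PD and ATP5S. Below it in all 17 were 11, among them NDUFAF2, NDUFAF4, NDUFAF5, NDUFAF6 and SDHAF3 and the subunits NDUFAB1, NDUFC1, NDUFS4, NDUFS6, UQCRH and ATP5MC3. NDUFS6, a zinc-binding complex I subunit, shows the kind of value behind this. It was 204 CPM in untreated A375 cells and between 112 and 174 CPM in the adapted ones, and 1318 CPM in untreated PC9 cells and between 876 and 1212 CPM in the drug populations. Most of the 11 stayed within 1.5-fold at the top doses. Since each line's drug populations share 1 untreated culture, an error in that culture would put a gene on 1 side in all of them. Of the 8954 genes of both tables at that level, 6.82% were above in all 17 and 13.7% below, beside 6.67% and 10.5% of the members, so the members' shares were near those of all genes.

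Genes that serve the chain but fall outside the symbol rule were read from lists. Mitochondrial ribosomal proteins take part in translating the messages of the 13 mitochondrial genes. None of the 73 measured was at least 1.5-fold higher and 5 were lower in A375 at 4 µM (median log2 ratio -0.16), with MRPS6 at 198 CPM in untreated cells and 98.1 CPM at 4 µM. Of all genes measured in that comparison, 10.7% were higher and 21.0% lower. At 125 nM 19 of 73 were lower, beside 16.9% of all genes. In PC9 13 of 75 were lower at 1.2 µM (median -0.25) and 30 of 75 in persisters (median -0.47), with none higher in either, beside the 11.3% and 21.0% of all genes. MRPS2 was 102 CPM in untreated cells and 35.2 CPM in persisters, and MRPL12 189.7 and 91.7 CPM. In listed cells the persister count was 20 lower and 1 higher of 71, where 1686 of all 8849 genes measured were lower and 1856 higher. Genes of mitochondrial DNA transcription and replication included TFB1M, a ribosomal RNA methyltransferase, at 112 CPM in untreated A375 cells and 27.9 CPM at 4 µM, in a list with 4 of 12 lower and none higher. TFAM, which packages mitochondrial DNA, was 167 CPM in untreated PC9 cells and 79.1 CPM in persisters, in a list with 5 of 11 lower and none higher. Beside these 2 counts, 10.7% of all genes were higher and 21.0% lower in A375 at 4 µM, and 20.3% and 21.0% in persisters.

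Of the genes of mitochondrial RNA processing and stability, 4 of 13 were lower at 4 µM in A375 and none higher, beside the 21.0% and 10.7% of all genes. SLIRP, which with LRPPRC stabilises mitochondrial messages, was 111 CPM in untreated A375 cells and 69.5 CPM at 4 µM, and 558 CPM in untreated PC9 cells and 246 CPM at 1.2 µM. Among electron carriers, cytochrome c (CYCS) was 381 CPM in untreated PC9 cells, 252 CPM at 1.2 µM and 136 CPM in persisters, and CYC1, the cytochrome c1 of complex III, 273, 159 and 118 CPM. That list had 2 of 8 lower at 1.2 µM and 3 of 8 in persisters, beside the 11.3% and 21.0% of all genes. In A375 GPD2, the glycerol-3-phosphate dehydrogenase of the inner membrane, was 48.1 CPM in untreated cells and 21.1 CPM at 4 µM, 1 of 2 lower among 9, beside the 21.0%. Electron carriers that were higher are not counted here, nor are the RNA processing genes in PC9.

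Assembly factors named outside the rule were mixed. The counts of these last lists stand beside 10.7% of all genes higher and 21.0% lower in A375 at 4 µM, and 20.3% and 21.0% in persisters. In A375 at 4 µM 2 of 40 were higher and 6 lower, with UQCC3 of complex III at 40.6 CPM in untreated cells and 80.3 CPM, and COA7 of complex IV at 33.7 and 14.7 CPM. In persisters 4 of 40 were higher and 9 lower, with COA7 at 26.1 CPM in untreated cells and 7.95 CPM, COX20 at 138 and 70.9 CPM, and PET100 at 19.1 and 36.7 CPM. Import and chaperone genes had 12 of 24 lower and none higher in persisters, among them the import channel TOMM40 at 129 CPM in untreated cells and 45.8 CPM and the chaperonin HSPD1 at 885 and 402 CPM. In A375 at 4 µM 3 of 24 were lower and 1 higher, CHCHD10, at 76.3 CPM in untreated cells and 165 CPM. The tricarboxylic acid cycle had 5 of 18 lower and none higher in persisters, with citrate synthase (CS) at 51.7 and 25.1 CPM, and 2 higher and 2 lower of 18 in A375 at 4 µM, where IDH2 was 23.4 CPM in untreated cells and 39.8 CPM. Among regulators of mitochondrial biogenesis, the nuclear receptor ESRRG was 19.98 CPM in untreated A375 cells and 45.4 CPM at 4 µM, the coactivator PPARGC1A 3.82 and 20.9 CPM, and PPRC1 39.4 and 19.5 CPM. PPARGC1A was chosen after its value was seen and reached 10 CPM in that comparison only because it was high at 4 µM. No count is given for this list, so the genes named do not stand for it. In PC9 ESRRA was 36.9 CPM in untreated cells, 12.7 CPM at 1.2 µM and 18.7 CPM in persisters.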

How the data were processed

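CellPlex-tagged cells of each line were pooled and loaded on a 10x 3′ v3.1 assay, per the labels' protocols, and the A375 pool was sequenced in 2 runs that cell names do not tell apart. The authors deposited raw UMI counts per gene and cell, and cell tables with the percent of mitochondrial UMIs, per the file headers. Cell Ranger 7.0.0 and GRCh38 are named in the submitters' processing notes. How genes were filtered and listed cells chosen is not given in the sources used here. Cell name suffixes gave the population.

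All cells were used and no doublet caller was run. CPM are the summed UMIs of a gene over the population's total. 3′ UMI counts are not per length, so levels were compared only within a gene or sum. Ratios are log2(CPM + 1), on which low genes show less than their CPM ratio, and folds are CPM ratios with exact binomial intervals. Genes reaching 10 CPM and 20 UMIs in either population of a comparison were measured, and counted at 1.5-fold. A gene without UMIs could lie at up to 3 counts of the total. Named genes were the 13 mitochondrial genes, SDHA to SDHD, isoform partners, up to 5 highest and 5 lowest members of at least 25 CPM in each of 4 comparisons (the top dose and the persisters against untreated, and persisters against 1.2 µM), and up to 4 members of each list. Others were chosen after their values were seen, among them ATP5MF, NDUFA6, NDUFA10, NDUFC1, the other NDUFAF and SDHAF genes, the genes on 1 side of untreated in all populations, and PPARGC1A. Members and lists were chosen with earlier results of these data known. Gene positions came from GENCODE 29 by symbol, for all 112 members.

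The ratios, calls and intervals were tested on simulated data. Alternatives were cells with under 20% mitochondrial UMIs, listed cells, no cells above 2 times the median UMIs, mitochondrial UMIs left out of the total, per-cell means, TMM factors, other filters, pseudocounts and folds, and subunits alone. Python 3.11.15, numpy 2.4.6, scipy 1.17.1, pandas 2.3.3, matplotlib 3.10.9, R 4.3.3 and edgeR 4.0.16 (TMM factors only) were used.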

Additional observations from a re-analysis of the deposited data

Results flagged for a closer look

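Of the members at 10 CPM or more in both lines, 4 lay on opposite sides of the untreated culture in the lines: above it in every drug population of 1 line and below it in every drug population of the other. The share of all genes that did so was not counted, so the 4 cannot be read as a trait of the members. The difference between lines was not tested, and medium, drug and line cannot be told apart in it. MT-CYB had a median log2 ratio of 0.58 over the A375 populations and -0.085 over the PC9 populations, at 5903 CPM in untreated A375 cells against 7281 to 10818 CPM, and 6287 CPM in untreated PC9 cells against 5645 to 6197 CPM. The complex I subunit NDUFA10 had medians of 0.21 and -0.14, at 65.7 CPM against 69.2 to 86.3 CPM in A375 and 209 CPM against 174 to 207 CPM in PC9. NDUFA11, also of complex I, had medians of -0.12 in A375 and 0.40 in PC9, at 47.6 CPM against 36.4 to 47.5 CPM and 51.1 CPM against 62.4 to 74.2 CPM. The complex II assembly factor SDHAF2 had medians of 0.31 and -0.25, at 37.3 CPM against 42.2 to 60.9 CPM and 32.6 CPM against 25.2 to 31.2 CPM. The nearest population lay within counting error of the untreated one for NDUFA10 and SDHAF2 in both lines and for NDUFA11 in A375.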

How the results depend on the processing

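Each of the 4 comparisons was recomputed with other cells, totals, scalings and limits. No recomputed value changed from a call on 1 side to a call on the other. The genes named by the rule had 24 calls past 1.5-fold, with 168 recomputed values, of which 156 were still past it. The other called members were recomputed only within the counts below. The values no longer past it belonged to NDUFAF6 in A375, ATP5MPL and NDUFA12 at 1.2 µM, and NDUFAF2, NDUFAF4 and NDUFAF6 between persisters and 1.2 µM.

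A375 4 µM against untreated, nuclear class, summed level: the log2 ratio was 0.09 as reported, 0.12 in cells with under 20% mitochondrial UMIs, 0.13 with mitochondrial UMIs left out of the total, -0.0056 as the mean of per-cell CPM and 0.19 with TMM factors. The 5 higher members became 7 in listed cells, without cells of high UMI counts or with TMM factors, 6 with mitochondrial UMIs left out, 1 at 2-fold, 3 at 50 CPM or more and 3 with a pseudocount of 5. The 1 lower member became 2 without cells of high UMI counts or without a filter, 3 as per-cell means and 0 at 2-fold or over subunits alone. The mitochondrial sum, 0.56, became 0.42 in cells under 20%, 0.40 in listed cells, 0.64 without cells of high UMI counts, 0.60 with mitochondrial UMIs left out of the total, 0.89 as per-cell means and 0.66 with TMM factors. The 3 higher mitochondrial genes became 7 as per-cell means and 1 at 2-fold, and the 0 lower ones 1 in listed cells, MT-ND6.

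PC9 1.2 µM against untreated, nuclear class, summed level: the log2 ratio of 0.0089 became 0.067 in listed cells, 0.021 with mitochondrial UMIs left out of the total, -0.070 with TMM factors and 0.020 over subunits alone. The 2 higher members became 0 at 2-fold and 1 at 50 CPM or more, and the 5 lower ones 3 as per-cell means, 8 with TMM factors, 0 at 2-fold and 2 over subunits. The mitochondrial sum of 0.14 became 0.11 in listed cells, 0.15 with mitochondrial UMIs left out of the total and 0.058 with TMM factors.

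PC9 persisters against untreated, nuclear class, summed level: the log2 ratio of -0.07 became -0.028 in listed cells, -0.055 with mitochondrial UMIs left out of the total, -0.087 as per-cell means, -0.13 with TMM factors and -0.056 over subunits. The 1 higher member became 6 in listed cells and 0 at 2-fold, and the 9 lower ones 11 as per-cell means, 13 with TMM factors, 3 at 2-fold and 2 over subunits. The mitochondrial sum of 0.19 became 0.11 in listed cells, 0.21 without cells of high UMI counts or with mitochondrial UMIs left out, 0.20 as per-cell means and 0.14 with TMM factors.

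PC9 persisters against PC9 1.2 µM adapted, nuclear class, summed level: the log2 ratio of -0.08 became -0.094 in listed cells, -0.10 as per-cell means and -0.055 with TMM factors. The 1 higher member became 0 at 2-fold or over subunits and 2 without a filter. The count of 3 lower ones became 1 in listed cells or at 50 CPM and 0 at 2-fold or over subunits. The 1 in listed cells was none of the 3 that were lower in all cells. The mitochondrial sum of 0.057 became 0.0096 in listed cells, 0.070 without cells of high UMI counts, 0.063 as per-cell means and 0.083 with TMM factors.

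Except for the settings that by construction count fewer genes, the cause of these shifts was not tested. TMM factors moved the median over all genes from -0.17 to -0.07 in A375 and changed the split of all genes from 1061 higher and 2090 lower to 1295 and 1652, and in PC9 at 1.2 µM from 1351 and 1071 to 1143 and 1349. No paired analysis was possible because each population was 1 culture and no replicate number exists in the cell names. With 1 culture, spread between cultures is unknown for every value, and intervals are too narrow to stand for it.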

Other observations

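The authors' cell tables give a cluster number for each listed cell, and the 2 classes differed between clusters. In A375 cluster 7, with 780 cells of which 34.1% came from the 2 µM population, had a nuclear sum of 19300.1 CPM and a mitochondrial sum of 68145 CPM. Cluster 1, with 751 cells and 60 nM as its commonest population, had 14335 and 67746 CPM, and cluster 0, with 394 cells of which 87.1% were untreated, 16448 and 58616 CPM. The 3446 A375 cells outside the authors' table had 15771 and 59619 CPM. In PC9 cluster 1, with 718 cells of which 83.4% were persisters, had 19698 and 87395 CPM, and cluster 4, with 1031 cells and 600 nM as its commonest population, 22154 and 82740 CPM. Clusters were made by the authors from the expression of these cells and follow the populations in part, so these sums are values without a comparison.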
